A study of Mus musculus with 3 samples.

Results

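The genes examined were those of the enzymes that carry methionine, and selenomethionine (Se-Met) with it, through the methionine cycle and on towards cysteine and the polyamines. They were chosen by name, as Mat2a, Mat2b, Ahcy, Mtr, Mtrr, Amd1, Cbs and Cth, which are 8 of the 15287 genes listed in the FPKM table. A further gene of the set, Mtap, was not analysed here. The RNA came from MC3T3-E1, a wild-type preosteoblast line derived from mouse calvaria, and each of 3 conditions was 1 library. The CTL cells had no special treatment, the Ti cells spent 24 h with titanium particles (10 μg per square centimetre), and the Ti+Se-Met cells spent 24 h with that dose of particles plus 5 μM Se-Met. A library of cells given Se-Met without particles was not analysed here, so Se-Met could be examined only on top of the particles. Single libraries allow no test, so no p-value is given, and every difference is one between libraries without a check on replicates. Where 3 values follow each other they stand in the order CTL, Ti, Ti+Se-Met.

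Methionine is activated to S-adenosylmethionine (SAM), the methyl donor of the cell. The methyl transfer leaves S-adenosylhomocysteine, which is split to homocysteine. Homocysteine is either methylated back to methionine with a methyl group from folate, or drawn off through cystathionine to cysteine, the transsulfuration route. Because the selenium of Se-Met takes the place of the sulfur, the same enzymes accept it, and transsulfuration leads to selenocysteine, from which selenium is released for selenoprotein synthesis.

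The values were FPKM, fragments scaled to transcript length and to the total of the library. Levels can therefore be set side by side between genes. The depth of each library was estimated from the steps of 1 fragment seen in short genes, at 14350000, 14450000 and 10250000 fragments. From these depths each fold of FPKM was given a 95% interval, which is approximate and covers counting error only. The log2 ratio below is the difference in log2(FPKM + 1), which shrinks the ratios of low genes, and a gene was counted as different at a 2-fold difference on that scale. A gene was kept for counts over all genes if it reached 1 FPKM in at least 1 library, which 11137 genes and 6 of the 8 enzyme genes did. The identity of the cells was checked on lists of markers. Of 10 osteoblast markers 7 reached 1 FPKM, and Col1a1 (type I collagen) was at 1333.19, 354.2 and 481.63 FPKM. The markers Sp7, Ibsp and Bglap stayed below 1 FPKM in all 3 libraries, and Alpl, at 1.51, 0.2 and 0.2 FPKM, reached it only in CTL. Of 4 adipocyte and 4 endothelial markers only 2 each were listed, and 0 of these reached 1 FPKM. Of 3 listed muscle markers only Des reached 1 FPKM, at 1.05, 0.32 and 0.45 FPKM. Of the listed macrophage markers Csf1r and Cd68 stayed below 0.5 FPKM. Lyz2 was at 26.72, 14.76 and 12.42 FPKM and Cd14 at 5.7, 16.56 and 14.81 FPKM.

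The 8 genes fell into groups of very different level. Mat2a, Amd1, Mat2b and Ahcy lay between 23.54 and 62.02 FPKM in every library, Mtr and Mtrr between 3.16 and 10.25 FPKM, and the transsulfuration genes Cbs and Cth between 0.17 and 0.48 FPKM. In CTL the order was Mat2a, Amd1, Mat2b, Ahcy, Mtr, Mtrr, Cbs and Cth, and the counting intervals of neighbours in this order did not overlap, except those of Cbs and Cth. In Ti, Ahcy lay between Mat2a and Amd1, and its interval overlapped that of Mat2a. In Ti+Se-Met, Ahcy had the highest level of the set, and its interval overlapped that of Mat2a, which in turn overlapped that of Amd1.

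**Figure D1:**
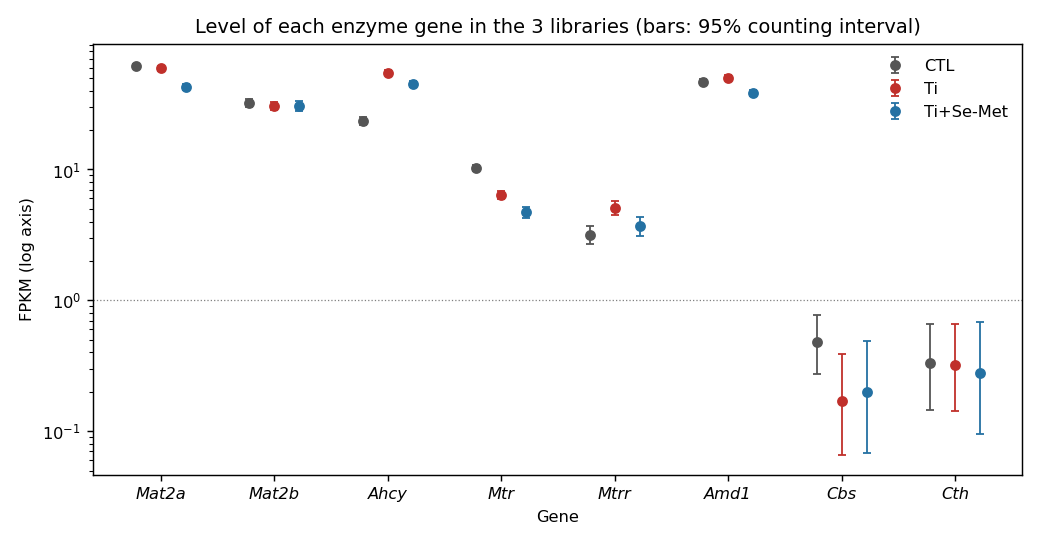
FPKM on a log axis of the 8 enzyme genes in the CTL, Ti and Ti+Se-Met libraries, with bars for the 95% exact Poisson interval of the estimated fragments and a dotted line at 1 FPKM. Ahcy is higher and Mtr lower in both Ti-treated libraries than in CTL, Mat2a and Amd1 are lowest in Ti+Se-Met, and Cbs and Cth lie below 1 FPKM throughout.

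Between Ti and CTL the set did not move as a block. Ahcy, higher, was the only one of the 6 past 2-fold, beside 7.26% of all 11137 genes (3.63% higher, 3.64% lower). At 1.5-fold Mtr, lower, joined it, beside 26.8% of all genes (15.5% higher, 11.3% lower). By the counting interval, Ahcy, Mtrr and Amd1 were above CTL and Mtr was below it, and Cbs and Cth, which had not passed, were neither. That is 3 above and 1 below of the 6 that passed, beside 42.8% and 32% of the 10919 genes that passed and had a known length. This count moved with the scaling. Amd1 was no longer above CTL under any of 3 others, while Ahcy and Mtrr stayed above. Of all 8 intervals, 5 lay below 1 as TPM (Mat2a, Mat2b, Mtr, Cbs and Amd1), 4 by upper quartile and 3 by median of ratios, each count including Cbs. Of the 6 genes that passed, 3 were above CTL and 3 below, beside 55.3% of all genes above. The median log2 ratio of the 6 was 0.02 where all genes had 0.08. It was negative under the other scalings (-0.21 as TPM, -0.03 by median of ratios, -0.08 by upper quartile). Between Ti+Se-Met and Ti, in contrast, all 6 were lower in the library with Se-Met, with a median log2 ratio of -0.37 against -0.06 for all genes, of which 61.1% were lower. Under each of these scalings Mat2b was higher instead of lower, and the other 5 stayed lower. By the counting interval 5 of the 6 were lower and 0 higher, beside 29% of the 10919 genes lower and 15.6% higher. In that comparison 0 of the 6 reached 2-fold, beside 0.224% of all genes (0.162% higher, 0.0629% lower), and 0 reached 1.5-fold, beside 2.14% (0.844% higher, 1.29% lower). Set against CTL, the Ti+Se-Met library had 0 of the 6 past 2-fold, beside 5.96% of all genes (2.64% higher, 3.32% lower). At 1.5-fold Ahcy was higher and Mtr lower there, beside 22.2% of all genes (10.4% higher, 11.8% lower). By the counting interval 1 of the 6, Ahcy, was above CTL and 3, Mat2a, Mtr and Amd1, were below it, beside 36% and 33.3% of the 10919 genes. In every comparison, an interval excludes equal levels more easily in a gene with more fragments. The 10919 genes were not matched to the enzyme genes in level, so their shares by the counting interval are not a like-for-like measure.

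**Figure D2:**
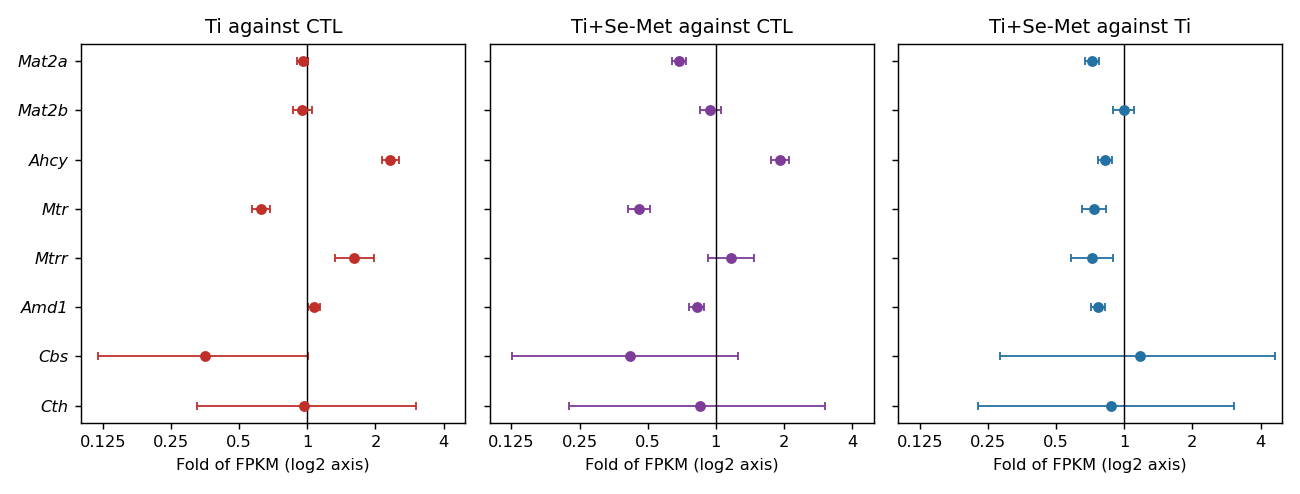
Fold of FPKM of the 8 enzyme genes on a log2 axis in the 3 comparisons of libraries, with bars for the 95% exact conditional binomial interval and a line at equal levels. In Ti against CTL the genes lie on both sides of the line, whereas in Ti+Se-Met against Ti the intervals of Mat2a, Ahcy, Mtr, Mtrr and Amd1 all lie below it.

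Mat2a encodes the catalytic subunit of the methionine adenosyltransferase that makes SAM outside the liver, and Mat2b its regulatory subunit. Mat2a measured 62.02 FPKM in the CTL library, 59.16 with Ti and 42.62 with Ti+Se-Met, resting on about 2621, 2518 and 1287 fragments. CTL and Ti were close, with a fold of 0.954 whose interval, 0.903 to 1.01, included equal levels, although under each of the 3 other scalings it lay below 1 (upper bounds 0.859 as TPM, 0.978 by median of ratios and 0.939 by upper quartile). The level was lower with Se-Met, with a fold against Ti of 0.72 (interval 0.673 to 0.771). With Se-Met its log2 ratio to Ti was -0.46, and 3.75% of the 11137 genes had a lower one. Mat2b was at 32.33, 30.69 and 30.57 FPKM, and the fold of Ti+Se-Met to Ti was 0.996 (interval 0.894 to 1.11), or just above 1 under each of the other scalings. The ratio of Mat2a to Mat2b within a library does not depend on any scaling between libraries. It was 1.92 (interval 1.77 to 2.07) in CTL, 1.93 (1.78 to 2.09) in Ti and 1.39 (1.26 to 1.54) in Ti+Se-Met.

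The Mat2a transcript is known for a SAM-responsive control through its 3′ end, where the RNA methyltransferase METTL16 binds hairpins whose loop holds the letters TACAGAGAA (with U for T in the RNA) or a close variant. The sites are shown because Mat2a was the gene of the set that stood lowest among all genes in Ti+Se-Met against Ti. In GENCODE M21, the 1494 bases after the stop codon of transcript Mat2a-201 held TACAGAGAA 5 times and the variant TACAGAAAA 1 time, beginning at bases 40, 824, 1003, 1118, 1229 and 1337. The 9 letters are in capitals, with 10 bases on either side, written as DNA.
Mat2a site 1: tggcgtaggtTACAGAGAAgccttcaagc
Mat2a site 2: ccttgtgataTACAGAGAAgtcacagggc
Mat2a site 3: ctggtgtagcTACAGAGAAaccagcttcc
Mat2a site 4: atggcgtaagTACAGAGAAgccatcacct
Mat2a site 5: caaggtgtccTACAGAAAAaccttgggtt
Mat2a site 6: gctggtgtggTACAGAGAAgccagcttgt
The other 7 enzyme genes held 0 such matches on the sense strand after their stop codons. Of 21142 genes with an annotated 3′ untranslated stretch 4.98% held at least 1 match, and Mat2a was the only gene with 6. A match gives the letters only, and binding was not measured in these libraries. Mettl16 itself was at 18.8, 20.53 and 19.42 FPKM. Ythdc1, a reader of methylated RNA, was at 25.54, 21.4 and 18.59 FPKM, and Nudt21, a subunit of the cleavage factor CFIm, at 37.98, 62.24 and 53.44 FPKM.

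Ahcy encodes S-adenosylhomocysteine hydrolase, which removes the product that inhibits methyltransferases. Ahcy measured 23.54 FPKM in the CTL library, 54.85 with Ti and 45.08 with Ti+Se-Met, resting on about 808, 1897 and 1106 fragments. Both Ti-treated libraries were thus far above CTL, and the one with Se-Met lay between the others. Ti exceeded CTL by a fold of 2.33 (interval 2.15 to 2.53), a log2 ratio of 1.19, above that of 98.3% of the 11137 genes. With Se-Met the level was 1.92 times that of CTL (interval 1.75 to 2.1) and 0.822 times that of Ti (interval 0.762 to 0.886). As TPM, with the libraries rescaled to the same sum, the log2 ratio of Ti to CTL was 0.96, which is short of 2-fold, and it was 1.14 by median of ratios and 1.09 by upper quartile. Within a library, the ratio of Ahcy to Mat2a was 0.38 in CTL (interval 0.35 to 0.411), 0.927 in Ti (0.873 to 0.985) and 1.06 in Ti+Se-Met (0.975 to 1.15). The related genes Ahcyl1 and Ahcyl2, whose proteins resemble AHCY but are known for other roles, did not follow it. Ahcyl1 was at 103.52, 79.87 and 75.24 FPKM, and Ahcyl2 at 21.91, 17.26 and 18.47 FPKM.

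Mtr encodes methionine synthase, which methylates homocysteine with cobalamin as cofactor, and Mtrr the reductase that reactivates it. The pair differed from CTL in opposite directions in the Ti library. Mtr measured 10.25 FPKM in the CTL library, 6.38 with Ti and 4.7 with Ti+Se-Met, resting on about 1198, 751 and 392 fragments, so that CTL was highest and Ti+Se-Met lowest. The Ti level was 0.622 times that of CTL (interval 0.568 to 0.683). The Ti+Se-Met level was 0.737 times that of Ti (0.65 to 0.833) and 0.459 times that of CTL (0.408 to 0.514). The last corresponds to a log2 ratio of -0.98, which 3.54% of the 11137 genes went below, and which passed 2-fold as TPM (-1.16) and with upper-quartile scaling (-1.04). Mtrr was at 3.16, 5.1 and 3.69 FPKM, resting on about 164, 267 and 137 fragments. Its Ti level was 1.61 times that of CTL (interval 1.33 to 1.98), its Ti+Se-Met level 0.724 times that of Ti (0.584 to 0.892), and against CTL the interval of Ti+Se-Met, 0.925 to 1.48, included equal levels. The ratio of Mtr to Mtrr within a library was 3.24 in CTL (interval 2.76 to 3.85), 1.25 with Ti (1.09 to 1.45) and 1.27 with Ti+Se-Met (1.05 to 1.56).

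The promoters of Ahcy and Mtr are shown because these genes had the widest ranges of log2(FPKM + 1) over the libraries, 1.19 and 0.98, in opposite directions. The sequences are the 250 bases before the start of the gene in RefSeq, matched by symbol, and their positions are those of RefSeq's build, not of the deposited files. Motifs were searched on both strands as the GC box GGGCGG, the CCAAT box CCAAT, the TATA box TATAAA, the E-box CACGTG and the ATF4 composite element TGATGNAA, and matches are in capitals.
Ahcy promoter, GRCm38.p6, chr2:155074498-155074747, minus strand: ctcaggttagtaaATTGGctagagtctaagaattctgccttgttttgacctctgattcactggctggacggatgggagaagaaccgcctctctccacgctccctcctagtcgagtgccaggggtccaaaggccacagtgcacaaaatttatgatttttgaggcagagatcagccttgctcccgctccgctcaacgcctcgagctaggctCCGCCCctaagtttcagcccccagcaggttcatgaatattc
Mtr promoter, GRCm38.p6, chr13:12258114-12258363, minus strand: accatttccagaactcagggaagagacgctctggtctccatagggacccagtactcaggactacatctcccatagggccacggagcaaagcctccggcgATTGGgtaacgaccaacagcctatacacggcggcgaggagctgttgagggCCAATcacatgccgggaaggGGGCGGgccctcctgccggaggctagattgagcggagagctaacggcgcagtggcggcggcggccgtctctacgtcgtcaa
Ahcy held 1 GC box and 1 distant CCAAT box, and Mtr 1 GC box and 2 CCAAT boxes, of which 1 on the opposite strand. Neither held an E-box, a TATA box or an ATF4 element in this window. Among all 32851 promoters of this length, 32.7% held a GC box, 33.8% a CCAAT box, 12.4% a TATA box, 6.02% an E-box and 3.45% an ATF4 element. A promoter was found for 7 of the 8 genes. The Mat2a window held 3 GC boxes, of which 2 overlapped, 1 CCAAT box and 1 TATA box at 32 bases before the start.

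Amd1 encodes S-adenosylmethionine decarboxylase, which commits SAM to the polyamines spermidine and spermine. Amd1 measured 46.7 FPKM in the CTL library, 50.15 with Ti and 38.41 with Ti+Se-Met, resting on about 2047, 2213 and 1202 fragments. CTL and Ti were close, with a fold of 1.07 (interval 1.01 to 1.14) that was 0.915 and so the other way as TPM, 1.04 by median of ratios and 1 by upper quartile. Ti+Se-Met was the lowest, with a fold of 0.766 against Ti (interval 0.713 to 0.822) and 0.822 against CTL (interval 0.765 to 0.883). Amd2, a near-identical copy of Amd1 with which reads could be shared, was at 0.29, 0.47 and 0.48 FPKM, so the split between the copies is uncertain.

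Cbs encodes cystathionine beta-synthase, which joins homocysteine to serine, and Cth encodes cystathionine gamma-lyase, which then releases cysteine. Cbs measured 0.48 FPKM in the CTL library, 0.17 with Ti and 0.2 with Ti+Se-Met, resting on about 16, 6 and 5 fragments. Cth was at 0.33, 0.32 and 0.28 FPKM, resting on about 8, 8 and 5 fragments. Both genes thus had a low signal in all 3 libraries, and between 20.97% and 24.66% of listed genes had a lower value in the same library. The fold of Cbs in Ti against CTL was 0.354, with an interval of 0.119 to 1.002, and that of Cth 0.97 (interval 0.325 to 3.03). For Se-Met added to Ti the intervals were 0.284 to 4.62 and 0.227 to 3.05. No difference between libraries was detectable at this depth in Cth or, as deposited, in Cbs. Under each of the 3 other scalings, taken as exact, the interval of Cbs in Ti against CTL lay below 1, with upper bounds of 0.854 as TPM, 0.972 by median of ratios and 0.933 by upper quartile.

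**Figure D3:**
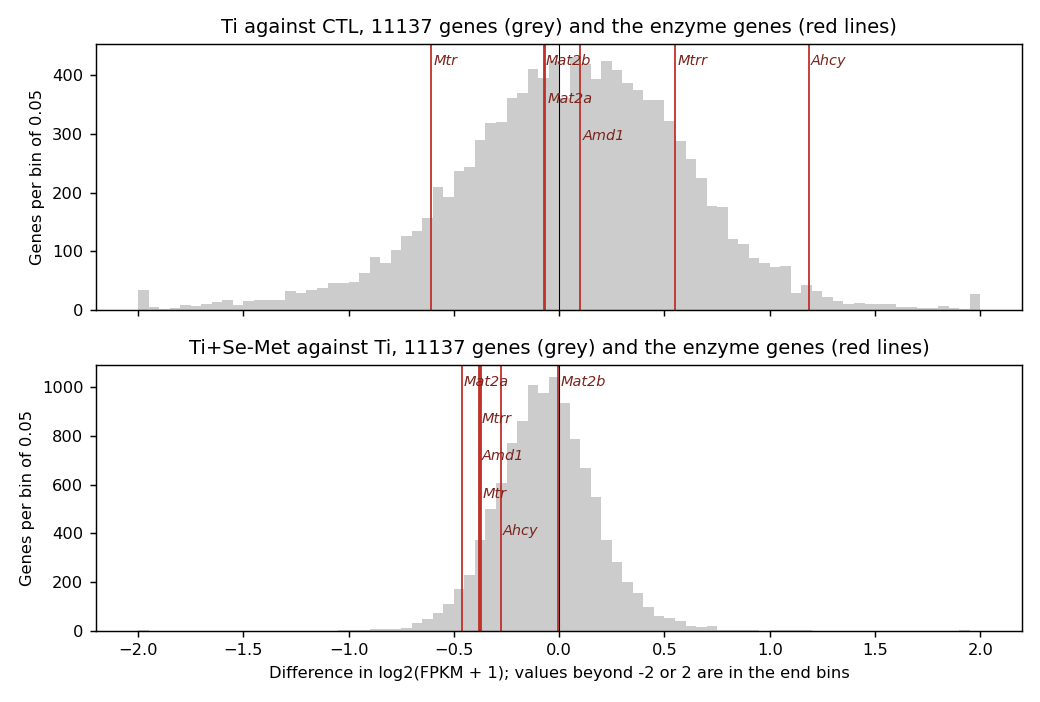
Difference in log2(FPKM + 1) of all 11137 genes that passed (grey, bins of 0.05) and of the 6 enzyme genes that passed (red lines), for Ti against CTL above and Ti+Se-Met against Ti below. Ahcy lies in the right tail and Mtr in the left part of the upper distribution, and Mat2a, Mtrr, Amd1 and Mtr lie together in the left part of the lower one.

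The routes around the cycle were described by lists of genes grouped by function. In folate metabolism, which supplies the methyl group to Mtr, 11 of 13 genes were higher in Ti than in CTL, beside 55.3% of all genes. Past 1.5-fold higher were 5 of the 13, beside 15.5% of all genes. The median log2 ratio was 0.53 against 0.08 for all genes. Shmt2, the mitochondrial serine hydroxymethyltransferase, was at 38.51, 126.41 and 99.56 FPKM, with a fold of 3.28 in Ti against CTL (interval 3.07 to 3.51). Mthfd2 was at 27.23, 54.41 and 58.57 FPKM, Mthfd1 at 18.17, 28.92 and 25.75 FPKM, and Tyms, thymidylate synthase, at 5.31, 8.88 and 8.63 FPKM. Slc19a1, the reduced folate carrier, was at 9.6, 17.31 and 10.48 FPKM, near CTL again in Ti+Se-Met with a fold of 0.605 against Ti (interval 0.517 to 0.707). Mthfd2l lay the other way, at 7.3, 4.04 and 3.67 FPKM.

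All 3 genes of serine synthesis were past 1.5-fold higher in Ti, beside 15.5% of all genes, with a median log2 ratio of 0.80. Psph, the phosphatase of the last step, was at 15.6, 40.5 and 30.52 FPKM, Phgdh, of the first step, at 95.13, 166.31 and 137.62 FPKM, and Psat1, of the step between, at 76.02, 123.73 and 106.08 FPKM. In cobalamin handling, 4 of 9 genes were higher in Ti than in CTL, beside 55.3% of all genes, and the median was -0.09. Mmachc, which processes cobalamin in the cytosol, was at 4.8, 10.46 and 7.73 FPKM, and Cd320, the receptor for cobalamin bound to transcobalamin, at 6.08, 10.71 and 7.75 FPKM. Mmachc and Cd320 had their highest level in Ti, as Mtrr did. In contrast, 5 of the 9 were lower in Ti than in CTL, among them Mmut, at 26.98, 18.33 and 18.52 FPKM.

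Methionine salvage returns the methylthio group left by polyamine synthesis to methionine. As deposited, all 5 of its genes were higher in Ti than in CTL, beside 55.3% of all genes, with a median of 0.44 that was 0.23 as TPM. Apip was close to equal levels, with a fold of 1.04 (interval 0.887 to 1.23), so the count of 5 depends on the scaling. All 5 were lower in Ti+Se-Met than in Ti, but their median there, -0.10 and -0.04 by median of ratios, was near that of all genes, -0.06, of which 61.1% were lower. Mri1 was at 7.07, 12.69 and 9.86 FPKM, and Got1, a transaminase of the last step, at 45.13, 74.82 and 73.74 FPKM. Among 11 polyamine genes, Amd1 included, the median in Ti against CTL was 0.16, and -0.06 as TPM. Srm, spermidine synthase, was at 20.14, 41.41 and 39 FPKM, and Smox, spermine oxidase, at 7.2, 17.79 and 16.73 FPKM, the only 2 of the 11 past 2-fold in Ti against CTL, beside 3.63% of all genes higher. Odc1, ornithine decarboxylase, was at 43.79, 57.48 and 64.64 FPKM.

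On the side of cysteine, 6 of 11 genes were past 1.5-fold higher in Ti and 1 past 1.5-fold lower, beside 15.5% and 11.3% of all genes, with a median log2 ratio of 0.64 against 0.08 for all genes. Gss, glutathione synthetase, was at 12.9, 30.26 and 23.19 FPKM, with a fold of 2.35 in Ti against CTL (interval 2.05 to 2.69). Gclc and Gclm, the subunits of the ligase that starts glutathione synthesis, were at 29.26, 46.13 and 33.5 FPKM and at 20.8, 37.33 and 37.1 FPKM. Sqor and Ethe1, of sulfide oxidation, were at 17.46, 28.83 and 29.51 FPKM and at 10.46, 16.95 and 14.69 FPKM, and Got2 at 51.13, 95.16 and 83.62 FPKM. Csad, which leads cysteine sulfinate to taurine, was at 25.61, 12.34 and 11.68 FPKM, with a fold of 0.482 in Ti against CTL (interval 0.426 to 0.546). Cdo1, which makes cysteine sulfinate, was at 0, 0.17 and 0 FPKM and was the only 1 of the 12 listed that did not pass, while the 11 others lay above Cbs and Cth in every library.

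A list of 7 genes held Scly, Sephs1, Sephs2, Pstk and Sepsecs, of selenium release and selenocysteine synthesis, and the aminotransferase genes Kyat1 and Kyat3. As deposited, all 7 were lower in Ti+Se-Met than in Ti, beside 61.1% of all genes. Their median log2 ratio was -0.31 against -0.06 for all genes. The counting intervals of Kyat1, Sepsecs, Scly and Sephs1 included equal levels, with upper bounds of 1.13, 1.04, 1.12 and 1.06. The lowest were Kyat3 and Kyat1, at -0.53 and -0.34. Pstk, Sephs2, Sepsecs and Scly were at -0.32, -0.31, -0.16 and -0.15. Sephs1, at 14.24, 13.21 and 12.66 FPKM, had a ratio of -0.06, small enough for its sign to depend on the scaling. Of the 7, 4 were higher and 3 lower in Ti than CTL, beside 55.3% of all genes higher. Their median there was 0.16, and -0.03 as TPM. Scly, selenocysteine lyase, was at 3.08, 5.8 and 5.11 FPKM. Sephs2, the selenophosphate synthetase that is itself a selenoprotein, was at 7.51, 15 and 11.88 FPKM, and Sepsecs, which completes the selenocysteine on its tRNA, at 8.84, 5.18 and 4.55 FPKM. Among the methionine sulfoxide reductases, which repair oxidised methionine, Msrb3 was at 85.12, 51.14 and 57.22 FPKM, and the selenoprotein Msrb1 at 44.53, 41.68 and 48.01 FPKM.

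The users of SAM gave a mixed picture. Of 6 small-molecule methyltransferases that passed, 3 had more and 3 less signal in Ti than CTL, beside 55.3% of all genes with more. Gamt, which makes creatine, was at 39.15, 19.87 and 21.61 FPKM, and Nnmt, which methylates nicotinamide, at 47.96, 37.81 and 30.09 FPKM. Pemt was at 1.86, 3.71 and 3.3 FPKM, and Inmt at 0.4, 1.71 and 1.41 FPKM. Of 9 nucleic acid methyltransferases and SAM-response genes, 4 were higher and 5 lower, beside 55.3% of all genes higher, with a median of -0.14. Dnmt1, the maintenance DNA methyltransferase, was at 16.5, 19.92 and 25.39 FPKM. It was the only 1 of the 9 that was higher in Ti+Se-Met than in Ti, beside 38.5% of all genes.

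The table marks 38 genes with the KEGG pathway of cysteine and methionine metabolism. Apart from the enzymes above, 25 of these passed. In the Ti library 17 of the 25 lay above CTL and 8 below it, beside 55.3% of all genes above. The median log2 ratio of the 25 was 0.26 (0.04 as TPM) where all genes had 0.08 (-0.13 as TPM). Srm, Gss and Bcat1 were past 2-fold, all higher, beside 3.63% of all genes. Bcat1, a branched-chain aminotransferase, was at 1.98, 7.14 and 5.39 FPKM and was the only 1 of the 25 past 2-fold in Ti+Se-Met against CTL, beside 5.96% of all genes. In Ti+Se-Met against Ti, 20 of the 25 were lower, beside 61.1% of all genes, with a median of -0.09 against -0.06 for all genes. The enzyme genes lay lower than these neighbours in that comparison, with a median of -0.37, and the difference between the lists was not tested.

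**Figure D4:**
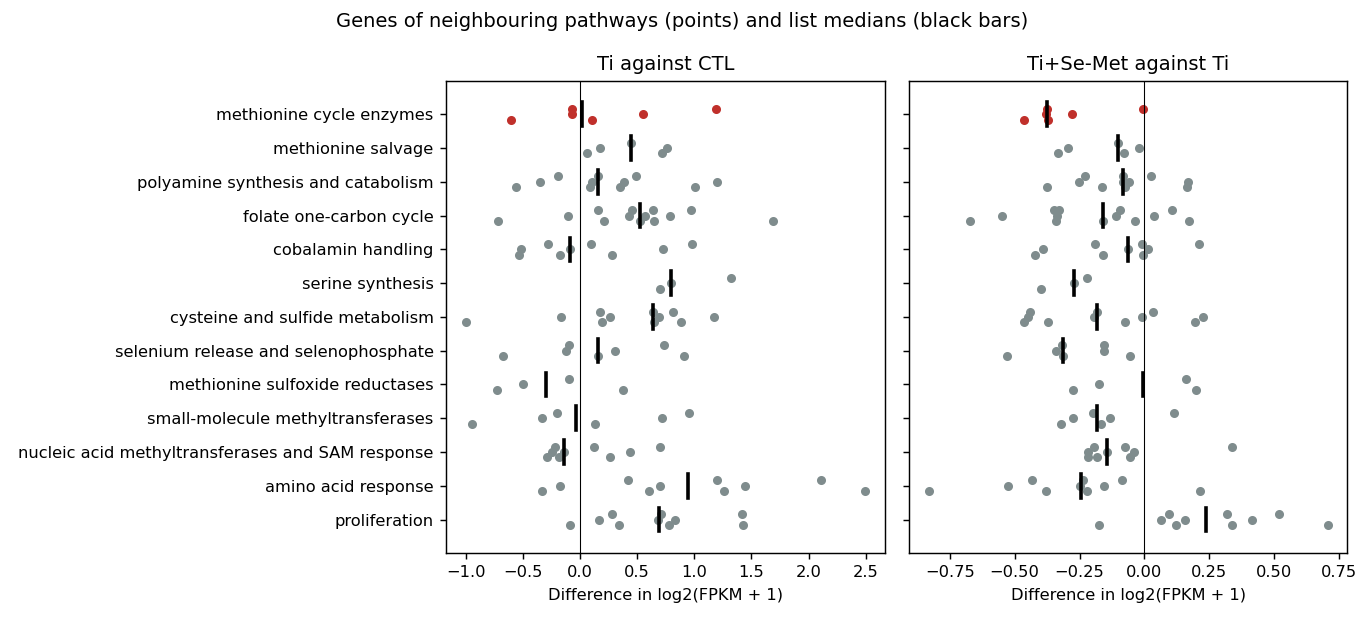
Difference in log2(FPKM + 1) of the genes of each list that passed (points, the enzyme genes of the methionine cycle in red) and the median of each list (black bars), for Ti against CTL on the left and Ti+Se-Met against Ti on the right. On the right, the medians of the enzyme genes and of the selenium list, which includes Kyat1 and Kyat3, lie furthest below 0, at -0.37 and -0.31. That of the proliferation genes, 0.24, lies above it.

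Amino acid response, proliferation and osteoblast genes also differed between the libraries. The amino acid response, which ATF4 drives, was described by 10 genes, with Psat1 of serine synthesis included. Of the 10, 7 were past 1.5-fold higher in Ti than in CTL, beside 15.5% of all genes, with a median log2 ratio of 0.95. In Ti+Se-Met 9 of the 10 were lower than in Ti, beside 61.1% of all genes, with a median of -0.24. Asns, asparagine synthetase, was at 26.9, 119.3 and 91.41 FPKM, and Trib3, an inhibitor of ATF4, at 4.73, 31.28 and 17.15 FPKM. Atf4 itself was at 91.03, 219.82 and 207 FPKM, and its target Ddit3 at 67.89, 156.75 and 131.88 FPKM. Chac1, which degrades glutathione, was at 2.78, 9.25 and 7.69 FPKM, and Sesn2 at 15.48, 24 and 16.37 FPKM. Of 10 proliferation genes 9 were higher in Ti than in CTL, beside 55.3% of all genes, with a median of 0.69. The helicase genes Mcm2 and Mcm5 were at 13.68, 38.36 and 33.9 FPKM and at 5.67, 16.76 and 17.96 FPKM. The cell cycle genes Ccnb1, Cdk1 and Aurkb were at 11.25, 19.01 and 25.68 FPKM, at 15.26, 25.06 and 31.45 FPKM and at 8.36, 15.65 and 17.53 FPKM, and Pcna, the replication clamp, at 83.73, 144 and 150.63 FPKM. In Ti+Se-Met 9 of the 10 were higher than in Ti, beside 38.5% of all genes, with a median of 0.24, and Mki67 was at 17.33, 16.29 and 27.18 FPKM. The enzyme genes lay lower in Ti+Se-Met than in Ti, as did the amino acid response, most other lists and 61.1% of all genes. The proliferation genes lay higher. In Ti against CTL the median was 0.02 for the enzyme genes and 0.95 for the amino acid response. Of the 7 osteoblast markers that passed, 6 were lower in Ti than CTL, beside 44.5% of all genes, with a median of -0.61. With Se-Met 6 of the 7 were higher than with Ti alone, beside 38.5% of all genes, with a median of 0.33. The summed level of the 10 listed markers was 5973.8, 5548.64 and 6940.84 FPKM, in which Spp1 held 1261.19, 3705.78 and 4659.49 FPKM. The part of any of these in the levels of the enzyme genes was not tested. In RNA of a whole culture, fewer cells of a kind and less RNA per cell cannot be told apart. Each condition was 1 culture, so treatment and growth state cannot be told apart.

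The genes whose centred log2(FPKM + 1) values lay nearest to those of Ahcy over the 3 libraries, among 8728 others with a mean of at least 5 FPKM, were Pla2g12a, AI413582, Rrp12, Atic and Coq10b, at distances of 0.014 to 0.026. Atic, an enzyme of purine synthesis that takes a formyl group from folate, was at 36.61, 86.54 and 70.1 FPKM. Nearest to Mat2a were Tardbp, Snrk, Ninj1, Ttpal and 4833420G17Rik, at distances of 0.012 to 0.033. Tardbp, an RNA-binding protein gene, was at 24.19, 22.96 and 16.57 FPKM. With 3 libraries many genes can share a pattern this closely.

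Scaling between libraries mattered most for Ti against CTL. All genes had a median log2 ratio there of 0.08 as deposited, -0.13 as TPM, 0.04 by median of ratios and -0.01 by upper quartile. Ahcy and Mtrr lay above the median of all genes and Mtr below it. A scaling moves a gene and this median by nearly the same amount, so their order could hardly change with the scaling. In Ti+Se-Met against Ti the log2 ratio of Mat2a was -0.46 as deposited and between -0.43 and -0.40 under the other scalings, and those of Mtr, Mtrr and Amd1 stayed between -0.35 and -0.31.

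**Figure D5:**
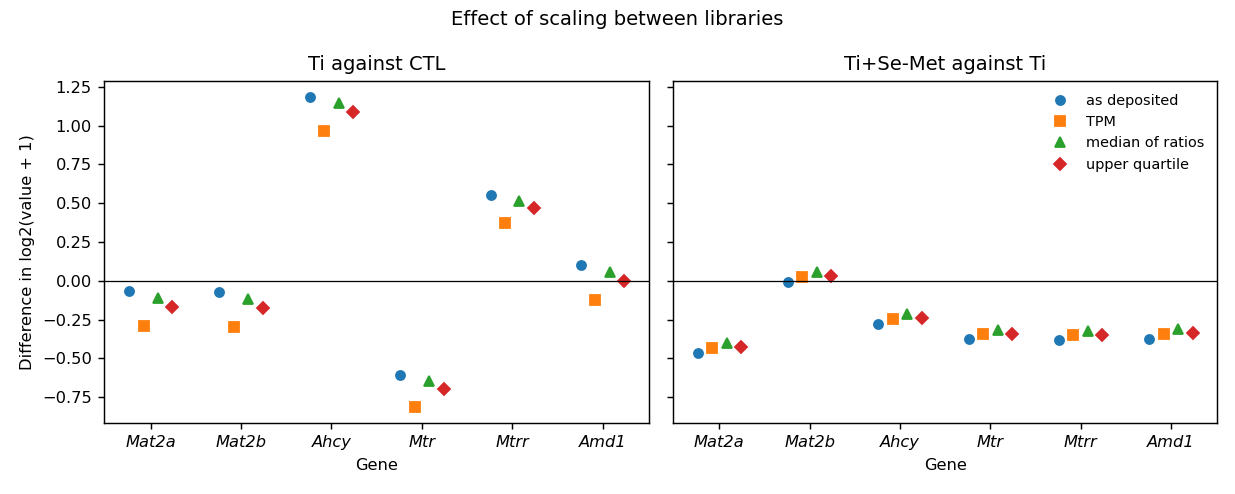
Difference in log2(value + 1) of the 6 enzyme genes that passed, with FPKM as deposited and under 3 scalings between libraries, for Ti against CTL on the left and Ti+Se-Met against Ti on the right. The sign depends on the scaling for Amd1 on the left and for Mat2b on the right, and for the other genes it is the same under all 4.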

How the data were processed

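Total RNA of 3 MC3T3-E1 cultures, 1 library each, was sequenced on an MGI T7 instrument. The authors discarded reads with adapter or low quality, mapped with HISAT2, obtained gene counts through HTSeq, and the table they deposited holds FPKM, to 2 decimals. The submitters' processing notes list StringTie, SAMtools and the mm9 build as well. The route from counts to FPKM, and any scaling across libraries, are not given in the sources used here. KEGG membership was read from the deposited table.

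The tools numpy 2.4.6, pandas 2.3.3 and scipy 1.17.1 under Python 3.11.15 gave the log2(FPKM + 1) differences. No count model was fitted to FPKM. Genes had to reach 1 FPKM in at least 1 library. Library depth came from 453 single-transcript genes (350 to 1000 bases, each shortened by 150) with GENCODE M21 lengths matched by RefSeq accession, found for 98% of the genes kept. Nearly as good depths spanned 13850000 to 14800000 (CTL), 14050000 to 15000000 (Ti) and 9800000 to 10750000 (Ti+Se-Met). Folds carry 95% exact conditional binomial intervals. For genes of several transcripts the median length was taken. The depth estimate, the 2-fold count and the counting intervals were tested on simulated libraries, and the other steps were not. The simulation used the same lengths, shortened by the same 150 bases, so it could not check whether these suit the deposited values. Pseudocounts of 0.1 and 5, other filters, a 1.5-fold threshold and 3 scalings (TPM, upper quartile, median of ratios) were tried.

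The genes named are the enzyme genes, members of the pathway, proliferation and amino acid response lists past 1.5-fold in Ti against CTL or Ti+Se-Met against Ti with a mean of at least 1 FPKM, and the 5 nearest patterns to Ahcy and Mat2a. Others, cell type markers included, are named to describe a list and were chosen after their values were seen. The genes and lists were chosen with earlier results of these data known.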

Additional observations from a re-analysis of the deposited data

How the results depend on the processing

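No paired analysis was possible because there was only 1 library in every condition, and leaving a library out would have left its condition empty. The number of enzyme genes past 2-fold in Ti against CTL, 1, became 0 as TPM and 2 at 1.5-fold. It was 0 between Ti+Se-Met and CTL and became 1, Mtr in each case, with a pseudocount of 0.1, as TPM and with upper-quartile scaling, and 2 at 1.5-fold. Between Ti+Se-Met and Ti the number stayed 0 under all 8 alternatives. For the KEGG genes, the 4 in Ti against CTL became 1 with a pseudocount of 5 and as TPM, and 10 at 1.5-fold. Their 1 gene in Ti+Se-Met against CTL became 3 at pseudocount 0.1, 0 at pseudocount 5 and for a mean of at least 5 FPKM, 2 with upper-quartile scaling, and 11 at 1.5-fold. Between Ti+Se-Met and Ti, 0 became 1 with a pseudocount of 0.1 and at 1.5-fold. A higher pseudocount, a filter or a lower threshold changes these numbers by construction, and a scaling moves every gene by a common factor.

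Of 159 log2 ratios of enzyme genes under the alternatives, 154 kept their direction. The exceptions were Amd1 in Ti against CTL, as low as -0.13, and Mat2b in Ti+Se-Met against Ti, as high as 0.06. Depth limits Cbs and Cth, at 5 to 16 estimated fragments, and Ti+Se-Met was the shallowest library.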
